A study of Homo sapiens with 13 samples.

Results

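The oxidative stress response genes described here are OSGIN1, HMOX1, NQO1, TXNRD1, GCLC, GCLM, SRXN1, GPX1, GPX2 and NFE2L2. They were chosen by symbol with their measured values in both knockdowns already known, and all 10 are among the 23886 gene symbols of each deposited table. Fold changes, calls and differences between the knockdowns are therefore given as a description of these genes. The cells were DLD-1, an established line from a Dukes' type C colorectal adenocarcinoma, and every sample received an siRNA at 50 nM and was harvested 72 h later for stranded, poly(A)-selected RNA-seq. A first table set 4 samples with an siRNA against the transcription factor SOX9 (siSOX9; 3 of experiment 1 and 1 of experiment 2) against 3 samples with a control siRNA (siCtrl; 2 of experiment 1 and 1 of experiment 2). A second set 4 samples with an siRNA against Y14 (siY14; 2 with siRNA number 9 and 2 with number 10, pooled into 1 arm) against 2 siCtrl samples, all of experiment 3. Y14 is the product of RBM8A and belongs to the core of the exon junction complex, which marks spliced mRNA and takes part in nonsense-mediated decay. All samples come from 1 cell line, and nothing in the labels says that they were separate cultures, so the p-values cover the variation among these samples alone, and that variation may be technical.

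The genes belong to the KEAP1-NRF2 pathway of redox defence. NFE2L2 encodes the transcription factor NRF2, which the adaptor KEAP1 holds in the cytoplasm for degradation until electrophiles or oxidants modify KEAP1. NRF2 then pairs with small MAF proteins on antioxidant response elements and raises genes for quinone reduction, glutathione synthesis, thioredoxin and sulfiredoxin activity and heme breakdown. NRF2 activity is set mostly by protein stability, so the NFE2L2 mRNA level is not a readout of it. GPX1, GPX2 and TXNRD1 encode selenoproteins, in which a UGA codon is read as selenocysteine. When selenium is short, that codon can be read as a premature stop, and GPX1 is a textbook case of a selenoprotein mRNA lost to nonsense-mediated decay.

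The stretches around the selenocysteine codon are shown because this codon is what links the selenoprotein members to nonsense-mediated decay. They are from GENCODE v29 transcripts on GRCh38, 5′ to 3′ on the coding strand, with the codon in capitals. In the GPX1 transcript used (chromosome 3, minus strand, codon at chr3:49358132-49358134) it lies in exon 1 of 2, with 105 bases between it and the exon junction downstream. In that of GPX2 (chromosome 14, minus strand, codon at chr14:64942607-64942609) it also lies in exon 1 of 2, with 102 bases to the junction. In that of TXNRD1 (chromosome 12, plus strand, codon at chr12:104348413-104348415) it lies in exon 15 of 15, with no junction downstream.
GPX1: tgtggcgtccctcTGAggcaccacggtccg
GPX2: tgtggcttcgctcTGAggcacaaccacccg
TXNRD1: ccaggctggctgcTGAggttaagccccagt

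The antioxidant response element has the core TGACNNNGC, which was searched on both strands of RefSeq promoter windows (GRCh38.p14, 250 bases before to 50 after a start site). Windows were on hand for 9 of the members, and the core was present for 3 of these 9, TXNRD1, GCLM and GPX2, or in 4 of their 11 windows (36.4%). Among all 35116 windows 13.3% held it, and among the 14468 windows of genes that averaged at least 10 normalised counts in the siSOX9 table the share was 14.4%. The matches are printed 5′ to 3′ on the gene's strand with 10 bases on either side and the core, or its reverse complement, in capitals. That of GCLM begins 34 bases before the start site (window chr1:93909381-93909680, minus strand), that of GPX2 122 bases before it (window chr14:64942696-64942995, minus strand), and those of the TXNRD1 windows 99 bases (window 1, chr12:104215529-104215828, plus strand) and 102 bases (window 2, chr12:104286782-104287081, plus strand) before it. Window 1 of TXNRD1 holds a further match beginning 8 bases before its start site. The core was not found in the windows of OSGIN1, NQO1, GCLC, SRXN1, GPX1 and NFE2L2, which says only that these letters are absent from the window.
GCLM: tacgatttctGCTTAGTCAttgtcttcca
GPX2: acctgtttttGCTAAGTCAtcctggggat
TXNRD1 window 1: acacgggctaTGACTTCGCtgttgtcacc
TXNRD1 window 2: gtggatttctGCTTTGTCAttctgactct

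The deposited tables give a mean normalised read count per arm, and whole reads per library were recovered from these means and the deposited p-values for all 10 members in both tables. Recovered libraries carry no sample name, so they are lettered by depth within their arm, with a the deepest. In units of 1000000 counts, the estimated depth was 24.9 to 183.8 for siSOX9 and 25.0 to 179.6 for siCtrl in the first table, and 49.1 to 72.3 for siY14 and 47.1 to 67.2 for siCtrl in the second. In the first table library a holds 65.5% of the siSOX9 reads and 73.9% of the siCtrl reads and stands apart from the others of its arm, with a median absolute log2 difference of 0.17 to 0.20 to siSOX9 libraries b, c and d, which lie 0.09 to 0.10 from each other. The siY14 libraries fall into a with c and b with d: within these the median difference was 0.03 and 0.04, and across them 0.21 to 0.22. The files do not say which library had which Y14 siRNA, so the siRNA and the library cannot be told apart, nor which library of the first table was of experiment 2, so no values within an experiment can be given. SOX9 had 7300.1, 10902, 8640.0 and 9424 normalised counts in siSOX9 libraries a to d, against 19346, 27076 and 26981 in siCtrl libraries a to c. RBM8A was listed at 0 in every arm, so the siY14 knockdown has no check here. Of 10 colon epithelial markers, EPCAM, CDH1, KRT8, KRT18, KRT19 and CDX2 had at least 7255 normalised counts in every arm, CDX1 was at or near 0, 2 were called lower with siSOX9 (CEACAM5 and VIL1) and 3 with siY14 (LGALS4, CDH1 and VIL1). Of the immune markers, PTPRC, CD3E and CD3D were under 1 normalised count in every arm. CD68 had 82.5 with siSOX9 against 70.2 with siCtrl and 77.0 with siY14 against 76.6 with siCtrl, and CD14 had 72.8 against 99.9 and 52.9 against 49.9 in the same order. Other markers of this list lay between these levels in some arms, so those named first do not stand for the whole list. The 10 fibroblast and endothelial markers summed to 182 with siSOX9 against 176 with siCtrl and to 87.4 with siY14 against 147 with siCtrl, with LUM at 0 in every arm; COL3A1 and COL1A1 were called higher and PDGFRB lower with siSOX9. The part of these markers in the results below was not tested.

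With siSOX9, OSGIN1, NQO1, GCLM and SRXN1 were higher, and the levels of HMOX1 and GCLC stayed within the spread of the libraries. OSGIN1, which encodes an oxidative stress-induced growth inhibitor, had 1958, 2627, 2608 and 2909 normalised counts in siSOX9 libraries a to d, against 806, 929 and 965 in siCtrl libraries a to c. Every siSOX9 library was above every siCtrl library, and the means were 2526 ± 403 (SD, n = 4) with siSOX9 and 899.9 ± 83.6 (SD, n = 3) with siCtrl. The authors' deposited table gives a log2 fold change of 1.49 with a DESeq adjusted p of 2.33e-05. In bulk RNA a change in the number of cells that express a gene and a change in RNA per cell cannot be told apart.

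NQO1, a quinone reductase and a classical NRF2 target, had 77336, 71067, 70998 and 80374 normalised counts in the siSOX9 libraries, against 43192, 41443 and 42009.7 in the siCtrl libraries. The arms did not overlap, and the spread within each was small, with a coefficient of variation of 6.25% with siSOX9 and 2.11% with siCtrl. The authors' deposited table gives 0.83 as the log2 fold change (DESeq adjusted p = 3.28e-04).

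GCLM, the modifier subunit of the ligase that makes the first step of glutathione synthesis, had 6887, 5808, 6701 and 7321 normalised counts with siSOX9, against 3879, 3215 and 3523 with siCtrl. The arms did not overlap. GCLC, the catalytic subunit of the same ligase, had 5911, 5021, 5513 and 5862 with siSOX9, against 6057, 5277 and 5638 with siCtrl, and its arms overlapped. In the authors' deposited table the log2 fold change was 0.92 for GCLM (DESeq adjusted p = 2.38e-04) and -0.02 for GCLC (DESeq adjusted p = 1).

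SRXN1, sulfiredoxin, which restores over-oxidised peroxiredoxins, had 15983, 13439, 14887 and 16820.0 normalised counts with siSOX9, against 10176, 8193 and 9204 with siCtrl. Its arms did not overlap, and the authors' deposited table gives a log2 fold change of 0.73 with a DESeq adjusted p of 0.00753. TXNRD1, the cytosolic thioredoxin reductase, had 43693, 29189, 32252 and 34730.0 with siSOX9, against 35186, 23345 and 24727 with siCtrl. The TXNRD1 arms overlapped, with siCtrl library a above siSOX9 libraries b, c and d. Between the deepest libraries alone the log2 fold change of TXNRD1 was 0.31, and between the means of the others 0.42. The value over all libraries was 0.33 (authors' deposited table, DESeq adjusted p = 1). In a limma-voom fit to the recovered reads it was 0.33 ± 0.17 (SE; adjusted p = 0.194), and with the deepest libraries as a term 0.38 ± 0.05 (SE; limma-voom adjusted p = 3.22e-07). The fit with that term was chosen after seeing the data and called 26.3% higher and 26.1% lower of 11757 genes. Of the fits that leave out 1 library, the one without siCtrl library a called TXNRD1, at 0.53 (limma-voom adjusted p = 0.0289).

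HMOX1, heme oxygenase 1, which breaks down heme, had 1577, 1750.3, 1872 and 1772 normalised counts with siSOX9, against 1687, 1699.6 and 1816 with siCtrl. The siSOX9 libraries lay on either side of the siCtrl libraries, with a deposited log2 fold change of 0.01 (authors' deposited table, DESeq adjusted p = 1). NFE2L2 itself had 8437, 7999, 8187 and 8293 with siSOX9, against 9786, 8949 and 9419.9 with siCtrl. All siSOX9 values were below all siCtrl values, but the difference was small, a log2 fold change of -0.19 with adjusted p of 1 by DESeq (authors' deposited table) and 0.0387 by limma-voom. As single libraries were left out, that limma-voom adjusted p lay between 0.0303 and 0.144 and stayed under 0.05 without siSOX9 library a alone.

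The glutathione peroxidases GPX1 (cytosolic, found in nearly all cells) and GPX2 (the gastrointestinal form) reduce hydrogen peroxide with glutathione. GPX1 had 4732, 6747, 6362 and 6289 normalised counts with siSOX9, against 5235, 7157 and 6877 with siCtrl. GPX2 had 139.5, 257, 214 and 224 with siSOX9, against 190.0, 302 and 262 with siCtrl, from 108 to 499 reads a library with siSOX9 and 126 to 655 with siCtrl. Both genes overlapped between the arms, and in both arms library a was the lowest. The deposited log2 fold changes were -0.09 for GPX1 and -0.27 for GPX2 in the authors' deposited table, each with a DESeq adjusted p of 1.

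**Figure D1:**
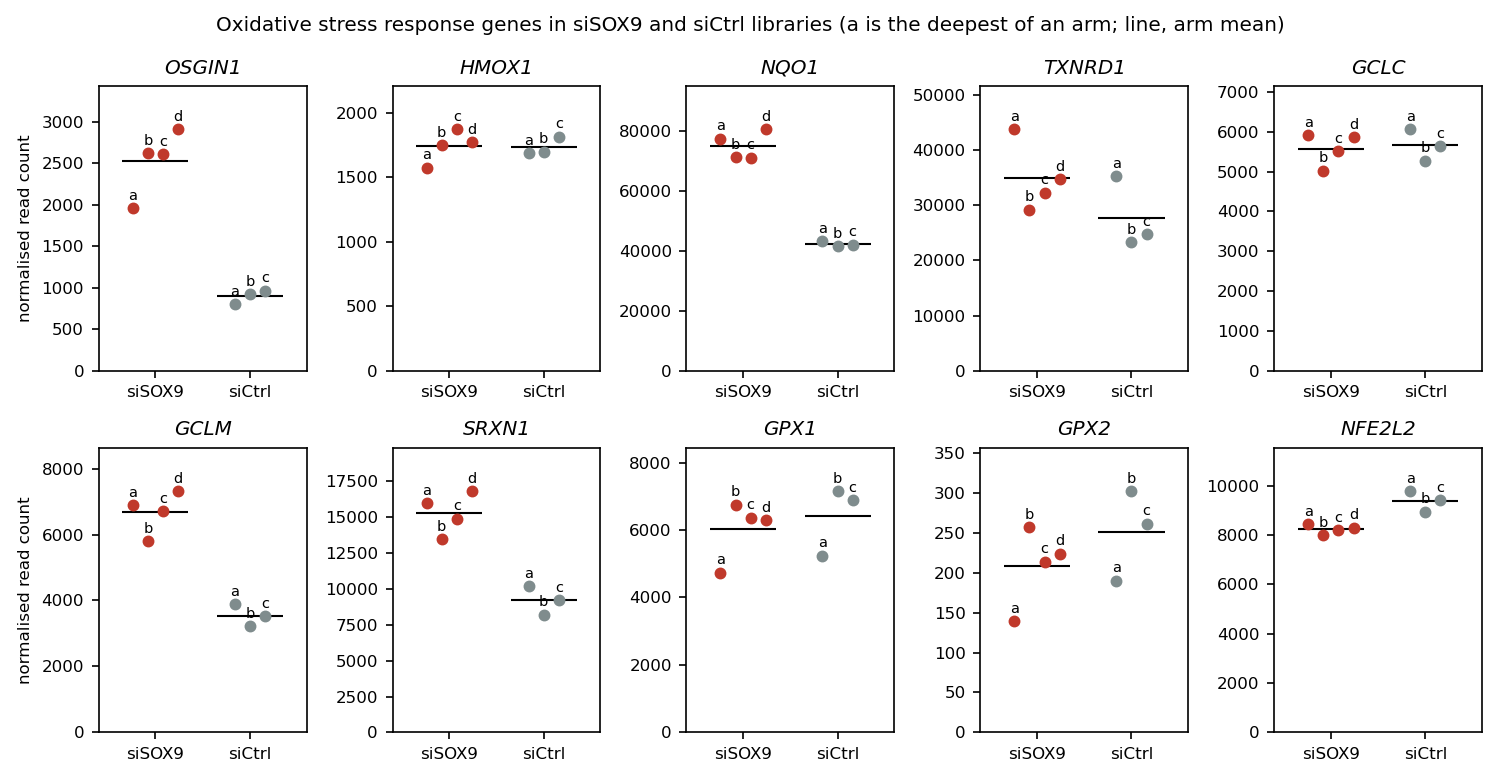
Normalised read count (y axis, from 0) of each of the 10 genes in 4 siSOX9 libraries (left, red) and 3 siCtrl libraries (right, grey), lettered from the deepest library of an arm, with a line at the arm mean. OSGIN1, NQO1, GCLM and SRXN1 have every siSOX9 library above every siCtrl library, and NFE2L2 has every siSOX9 library below.

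By the authors' adjusted p under 0.05, 4 of the 10 members were higher with siSOX9 and 0 lower, against 1.19% higher and 2.27% lower of all 18747 genes with reads, and at an unadjusted DESeq p under 0.05 the counts were the same, 4 and 0. The libraries did not overlap for 4 members higher and 1 lower, against 14.4% higher and 16.4% lower of 11757 recovered genes whose mean was at least 10. The limma-voom fit called 4 higher and 1 lower (NFE2L2), against 8.58% and 11.5% of the same genes. With the deepest libraries as a term, limma-voom called 8 members, adding TXNRD1 to the higher ones and GPX1 and GPX2 to the lower ones, but this fit also called 26.3% higher and 26.1% lower of the same genes. The median log2 fold change of the 10 members was 0.17, and that of all 13649 genes with a mean of at least 10 was 0.01. Nothing is read from these shares, since the members were chosen with this comparison known.

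With siY14, GPX1 was higher and GPX2 lower, and HMOX1, OSGIN1 and SRXN1 differed more among the siY14 libraries than between the arm means. GPX1 had 3629, 6101, 3726 and 6311 normalised counts in siY14 libraries a to d, against 1896 and 1922 in siCtrl libraries a and b. Each siY14 library was above both siCtrl libraries, with b and d the highest. The means were 4942 ± 1463 (SD, n = 4) with siY14 and 1909 ± 17.9 (SD, n = 2) with siCtrl, and the authors' deposited table gives a log2 fold change of 1.37 with a DESeq adjusted p of 0.0302. The DESeq p-values of siY14, here and below, count every library as a separate sample. Yet a and c, b and d, and the 2 siCtrl libraries differed by little more than counting noise. With a and c summed and b and d summed, the limma-voom adjusted p was 0.115 for GPX1 and 0.125 for GPX2.

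GPX2 had 152, 109, 149 and 126 normalised counts with siY14, against 217 and 215 with siCtrl. Each siY14 library was below both siCtrl libraries, on 109 to 190 reads a library with siY14 and 169 to 242 with siCtrl. The authors' deposited table gives a log2 fold change of -0.69 with a DESeq adjusted p of 0.0290. GPX1 and GPX2 thus moved in opposite directions. Their selenocysteine codons, printed above, lie 105 and 102 bases from the exon junction. Decay of these mRNAs was not measured, and its part in the changes was not tested.

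HMOX1 had 3850.1, 947, 3687 and 932 normalised counts in siY14 libraries a to d, against 2140.1 and 2121 in the siCtrl libraries. Libraries a and c were above both siCtrl libraries and b and d below both. The arm means, 2354 ± 1635 (SD, n = 4) with siY14 and 2130.3 ± 13.9 (SD, n = 2) with siCtrl, give a log2 fold change of 0.14 (authors' deposited table, DESeq adjusted p = 1), and the limma-voom fit, which averages on the log scale, gives -0.17 ± 0.69 (SE).

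SRXN1 had 12088, 22284, 12105 and 22045 normalised counts with siY14, against 20485 and 20488 with siCtrl. Here b and d were above both siCtrl libraries and a and c below both, the reverse of HMOX1. OSGIN1 had 1029, 2065, 968 and 2033 with siY14, against 1021 and 1058 with siCtrl, so that b and d were above both siCtrl libraries, a lay between them and c was below both. In the authors' deposited table the log2 fold change was -0.26 for SRXN1 (DESeq adjusted p = 0.767) and 0.55 for OSGIN1 (DESeq adjusted p = 0.622).

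NQO1 had 53851, 49966, 53894 and 50706 normalised counts with siY14, against 67385 and 67734 with siCtrl. TXNRD1 had 53532, 51295, 54101 and 51386 with siY14, against 71997 and 73057 with siCtrl. For both genes all siY14 libraries were below both siCtrl libraries and close together, with a coefficient of variation of 3.96% for NQO1 and 2.76% for TXNRD1. The authors' deposited table gives a log2 fold change of -0.37 for NQO1 (DESeq adjusted p = 0.141) and -0.46 for TXNRD1 (DESeq adjusted p = 0.0548), while the limma-voom adjusted p was 0.00533 for NQO1 and 0.00264 for TXNRD1. With siY14 libraries a and c summed and b and d summed, the limma-voom adjusted p was 0.101 for each of these genes.

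GCLC had 10867, 9437, 10679.7 and 9263 normalised counts with siY14, against 11796 and 11603 with siCtrl. GCLM had 8364, 6569, 8253 and 6584 with siY14, against 9643 and 9537 with siCtrl. NFE2L2 had 12928, 12276, 12676 and 11867 with siY14, against 14330.2 and 14107 with siCtrl. These 3 genes were below both siCtrl libraries in each siY14 library, with b and d the lowest, and their log2 fold changes in the authors' deposited table were -0.22, -0.37 and -0.19, with DESeq adjusted p of 0.499, 0.158 and 0.575 in the same order.

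**Figure D2:**
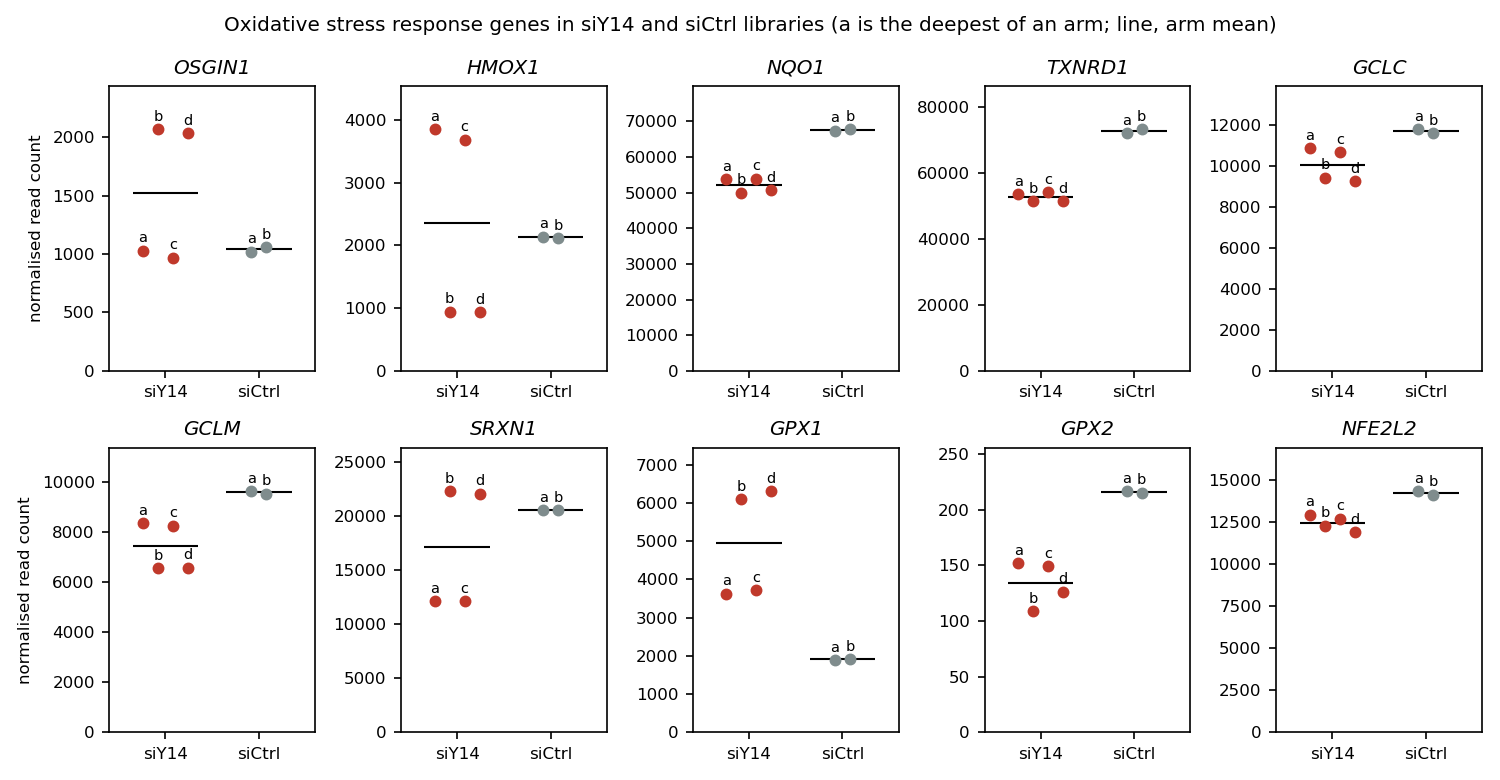
Normalised read count (y axis, from 0) of each of the 10 genes in 4 siY14 libraries (left, red) and 2 siCtrl libraries (right, grey), lettered from the deepest library of an arm, with a line at the arm mean. HMOX1, OSGIN1 and SRXN1 have siY14 libraries on both sides of the siCtrl libraries, with a and c close to each other and b and d close to each other.

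By the authors' adjusted p under 0.05, 1 member was higher with siY14 (GPX1) and 1 lower (GPX2), against 3.81% higher and 5.35% lower of all 17706 genes with reads. The libraries did not overlap for 1 member higher and 6 lower, against 33% higher and 32.2% lower of 12078 recovered genes whose mean was at least 10. For 3 members the siY14 libraries lay both above and below the 2 siCtrl libraries, as they did for 20.9% of the same genes. The limma-voom fit called 1 higher and 4 lower, against 15.2% and 15.2% of the same genes (1831 and 1834 genes). The pairs a with c, b with d and the 2 siCtrl libraries differed by little more than counting noise, with a mean chi-square per gene of 1.43, 1.49 and 1.44 where counting noise alone gives 1, against 46.1 to 63.0 for the other siY14 pairs. With a and c summed and b and d summed, the limma-voom fit called 0 of the 10 members and 0 of 12078 genes, with 6 of the members and 30.4% of those genes at an unadjusted limma-voom p under 0.05. Without either siCtrl library, the fit with the other alone also called 0 of the 10.

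The joint limma-voom model set the siSOX9 effect minus the siY14 effect, each against its own siCtrl, since the tables were normalised separately. The siSOX9 samples are of experiments 1 and 2 and the siY14 samples of experiment 3. Knockdown and experiment therefore cannot be told apart in this difference. The difference was 1.20 ± 0.08 (SE) on the log2 scale for NQO1 (limma-voom adjusted p = 1.32e-06) and 1.26 ± 0.16 for GCLM (limma-voom adjusted p = 1.49e-04). It was 1.04 ± 0.30 for SRXN1, 0.79 ± 0.20 for TXNRD1 and -1.41 ± 0.34 for GPX1, with limma-voom adjusted p of 0.0220, 0.0136 and 0.00989 in that order. For OSGIN1 it was 0.98 ± 0.39, which did not pass the threshold (limma-voom adjusted p = 0.0803). In all, 4 members had the higher effect with siSOX9 and 1 with siY14, against 12.5% and 13.3% of 10343 genes recovered in both tables. For NFE2L2 the difference was 0.00 ± 0.08 (SE). Without siCtrl library a of the siY14 table, NQO1 and GCLM alone were called, and without its library b, GPX1 as well. This model counts the near-identical siY14 libraries and their siCtrl libraries as separate samples. With the siY14 pairs summed, the same 5 members were called, and with the 2 siCtrl libraries summed as well, 3 were, NQO1, GCLM and GPX1. The limma-voom adjusted p was then 0.0645 for SRXN1 and 0.0967 for TXNRD1.

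**Figure D3:**
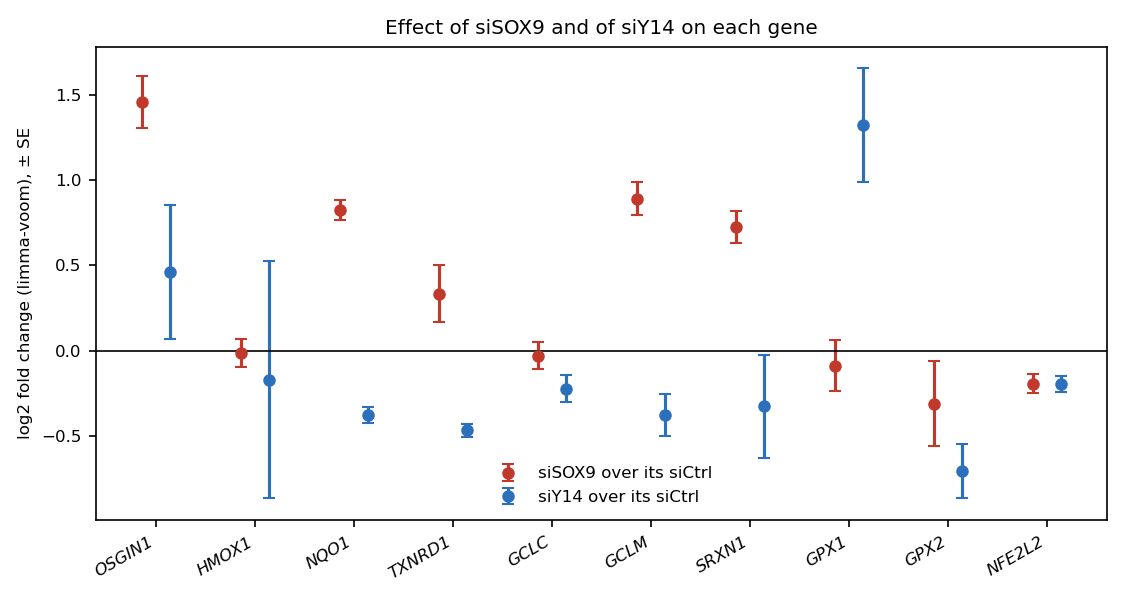
Log2 fold change from the limma-voom fit (y axis) of each gene for siSOX9 over its siCtrl (red) and siY14 over its siCtrl (blue), with bars of 1 SE. NQO1, GCLM, SRXN1 and TXNRD1 are above 0 with siSOX9 and below 0 with siY14, GPX1 lies near 0 with siSOX9 and at 1.32 with siY14, and HMOX1 with siY14 has the widest bar, 0.69.

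The members also differed in how evenly the libraries of an arm carried them, a property that arm means do not show. Among siY14 libraries the highest HMOX1 value was 4.13 times the lowest, a log2 ratio of 2.05, and HMOX1 ranked 3 from the widest of 9914 recovered genes whose mean was at least 100. OSGIN1 followed with a log2 ratio of 1.09, SRXN1 with 0.88 and GPX1 with 0.80, against a median of 0.26 over those genes, of which 3.07% reached 1. TXNRD1, NQO1 and NFE2L2 were even, with 0.08, 0.11 and 0.12. These ranks cover recovered genes alone, which are 89.8% of the genes with a mean of at least 10 in the siY14 table, and the spread of the others is not known. The others are not a random part. Outside the members and SOX9, genes spread beyond the fitted dispersion were searched only up to a set arm mean. Widely spread genes with high counts are therefore more often missing. The members can thus rank wider, and the medians lie lower, than over all genes.

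Among siSOX9 libraries HMOX1 had a log2 ratio of 0.25, OSGIN1 0.57 and SRXN1 0.32, against a median of 0.29 over 9608 genes. GPX2 had the widest spread there, 0.88, and TXNRD1 had 0.58. The deepest library set both: siSOX9 library a was 0.73 (log2) below the mean of b, c and d for GPX2 and 0.45 above it for TXNRD1, and siCtrl library a was 0.57 below and 0.55 above the mean of b and c. The 4 genes called higher were higher in both kinds of library. Between the deepest libraries the log2 fold change was 1.28 for OSGIN1, 0.84 for NQO1, 0.83 for GCLM and 0.65 for SRXN1, and between the means of the others 1.52, 0.83, 0.97 and 0.79.

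**Figure D4:**
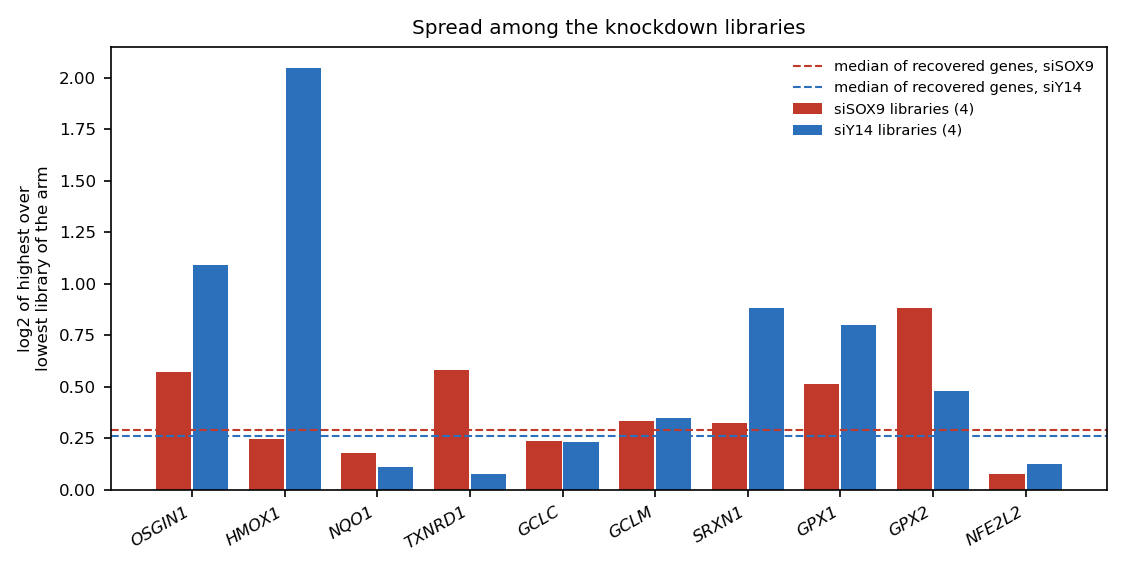
Log2 of the highest over the lowest library (y axis) of each gene among the 4 siSOX9 libraries (red bars) and the 4 siY14 libraries (blue bars), with dashed lines at the median of recovered genes whose mean was at least 100. HMOX1 reaches 2.05 and OSGIN1 1.09 among siY14 libraries, while NQO1, TXNRD1, GCLC and NFE2L2 stay under both medians there.

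Other NRF2 target genes were counted from a list of 40, some of which also stand in the lists below (SQSTM1, GSR, ABCB6 and FECH among those named). With siSOX9, 38 had reads, 7 were called higher and 1 lower by the authors' adjusted p, and the median log2 fold change of the 37 with a mean of at least 10 was 0.22. At an unadjusted DESeq p under 0.05 the siSOX9 counts were 11 higher and 3 lower, and limma-voom called 12 higher and 4 lower of 28 recovered. With siY14, 37 had reads, 0 were called higher and 8 lower by the authors' DESeq test, and the median of 36 was -0.22. At an unadjusted DESeq p under 0.05 the siY14 counts were 1 higher and 10 lower, and limma-voom called 1 higher and 10 lower of 29 recovered. Over all genes with reads, the authors' DESeq test called 1.19% higher and 2.27% lower with siSOX9, and 3.81% and 5.35% with siY14. Limma-voom called 8.58% higher and 11.5% lower of the recovered genes it tested with siSOX9, and 15.2% and 15.2% with siY14. The all-gene median log2 fold change, over genes averaging 10 or more, was 0.01 with siSOX9 and -0.00 with siY14. Of the 36 genes with a mean of at least 10 in both tables, 27 had a positive siSOX9 fold change and 28 a negative siY14 one, against 51.8% positive and 50.4% negative of 13186 genes. Nothing is read from these shares, since the list was chosen with earlier results of these data known. ABCG2 and CYP4F11 were called in both comparisons, each higher with siSOX9 and lower with siY14.

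Means of list genes are given ± SD over 4 siSOX9 and 3 siCtrl libraries in the first table and 4 siY14 and 2 siCtrl libraries in the second, and as arm means alone where reads were not recovered. Among the targets, ABCC2, an efflux pump for conjugated compounds, averaged 158 ± 21.2 normalised counts with siSOX9 (SD, n = 4) and 61.3 ± 17.2 with siCtrl (SD, n = 3), with 1.36 as the log2 fold change that the authors' deposited table gives. ABCG2, a further efflux pump, averaged 626 ± 68.7 with siSOX9 and 269 ± 14.3 with siCtrl, and AKR1B1, aldose reductase, 599 ± 83.4 with siSOX9 and 294 ± 24.6 with siCtrl. AKR1C2, an aldo-keto reductase whose reads can be shared with its near-identical neighbours, went the other way, with 161 ± 23.5 with siSOX9 and 347 ± 40.1 with siCtrl. With siY14, CYP4F11, a fatty acid hydroxylase, averaged 279 ± 30.04 (SD, n = 4) against 575 ± 5.68 with siCtrl (SD, n = 2), and AKR1B10, a further aldo-keto reductase, 161 ± 35.0 with siY14 against 314 ± 8.18 with siCtrl. AKR1C3, with the same limit as AKR1C2, averaged 401 ± 35.6 with siY14 and 675 ± 3.47 with siCtrl. UGDH, which makes UDP-glucuronate, had arm means of 20582 with siY14 and 35812 with siCtrl in the authors' deposited table.

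**Figure D5:**
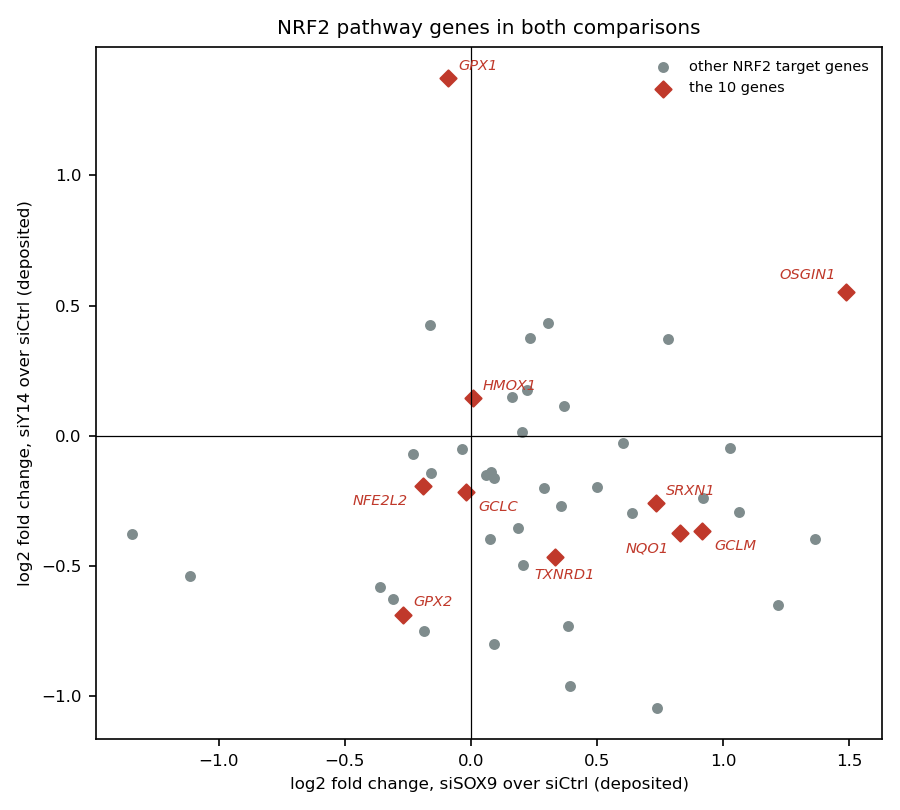
Log2 fold change of siSOX9 over siCtrl (x axis) and of siY14 over siCtrl (y axis) in the authors' deposited tables, for the 10 genes (red diamonds) and 36 other NRF2 target genes (grey circles). Of the 36, 27 lie right of 0 and 28 below 0, and GPX1 and OSGIN1 are the highest of the 10 genes on the y axis.

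Of 16 genes that regulate the pathway, 15 had reads, and the authors' DESeq test called 1 higher and 1 lower in each comparison. Among all genes with reads it called 1.19% higher and 2.27% lower with siSOX9, and 3.81% and 5.35% with siY14. Limma-voom called 2 higher and 3 lower of 11 recovered regulators with siSOX9, against 8.58% and 11.5% of all genes it tested. With siY14 it called 3 higher and 2 lower of 13, against 15.2% and 15.2%. The median log2 fold change of the regulators was -0.09 with siSOX9 and -0.23 with siY14, where all genes with a mean of at least 10 had 0.01 and -0.00. With siSOX9, SQSTM1, which encodes the autophagy receptor p62 and competes with NRF2 for KEAP1, averaged 48107 ± 3229 with siSOX9 (SD, n = 4) and 25439.8 ± 786 with siCtrl (SD, n = 3), a log2 fold change of 0.92 (DESeq adjusted p = 1.39e-04, authors' deposited table). BACH2, a repressor related to BACH1, averaged 69.1 ± 12.9 with siSOX9 and 143 ± 19.0 with siCtrl. With siY14, KEAP1 averaged 8022 ± 459 (SD, n = 4) against 5403 ± 134 with siCtrl (SD, n = 2), a log2 fold change of 0.57 (DESeq adjusted p = 0.0210, authors' deposited table), and BACH1, a repressor of HMOX1, averaged 4062 ± 589 with siY14 against 6767 ± 0.261 with siCtrl, a log2 fold change of -0.74 (DESeq adjusted p = 7.31e-04, authors' deposited table). In the authors' deposited table KEAP1 had a log2 fold change of -0.00 with siSOX9 and SQSTM1 -0.24 with siY14, neither of them called.

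Glutathione genes beyond GCLC and GCLM numbered 34, all with reads, with a median log2 fold change of 0.10 with siSOX9 and -0.05 with siY14, beside those of all genes just given. With siSOX9, 2 were called higher, GSTM2, a glutathione transferase whose reads can be shared with other GSTM genes (211 ± 30.2 with siSOX9 and 104 ± 14.1 with siCtrl), and CTH, which makes cysteine (1183 ± 109.6 with siSOX9 and 641 ± 111 with siCtrl). None of the 34 was called lower by the authors' DESeq test, with 3 lower at an unadjusted p under 0.05 and 3 by limma-voom. With siY14, 1 was called higher, SLC3A2, the heavy chain of the cystine importer (58418 ± 3805 with siY14 and 33635 ± 146 with siCtrl), and 3 lower. Those were GLRX, a glutaredoxin (824 ± 102 with siY14 and 1659.6 ± 42.0 with siCtrl), GSR, glutathione reductase (arm means of 12890.0 with siY14 and 21387 with siCtrl), and HAGH, a glyoxalase (506 ± 90.9 with siY14 and 823 ± 13.01 with siCtrl). An unadjusted DESeq p under 0.05 gave 2 higher and 9 lower with siY14, and limma-voom 2 higher and 7 lower of 28 recovered. Over all genes the authors' test called 3.81% higher and 5.35% lower with siY14, and limma-voom 15.2% and 15.2%.

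Of 26 genes for removal of peroxide and superoxide, 24 had reads, with a median log2 fold change of 0.095 with siSOX9 and 0.06 with siY14. SESN3, a sestrin, was called higher with siSOX9, at 1539 ± 229.8 (SD, n = 4) against 529 ± 101 with siCtrl (SD, n = 3), and lower with siY14, at 286 ± 159.7 (SD, n = 4) against 715 ± 11.8 with siCtrl (SD, n = 2). The siY14 call of SESN3 was not made by limma-voom (adjusted p = 0.0518). The list had 0 called lower with siSOX9 and 0 higher with siY14 by the authors' DESeq test, with 0 and 2 at an unadjusted p under 0.05 and 2 and 4 by limma-voom. CAT, catalase, was called lower with siY14, with arm means of 4681 with siY14 and 7451 with siCtrl in the authors' deposited table. Of 22 heme and iron genes, ABCB6, a porphyrin transporter (222 ± 18.8 with siSOX9 and 129 ± 15.3 with siCtrl), and FECH, ferrochelatase (7482 ± 355 with siSOX9 and 4810.3 ± 264 with siCtrl), were called higher with siSOX9. The median log2 fold change of this list was 0.06 with siSOX9 and -0.12 with siY14. With siY14, 0 of the 22 were called by the authors' DESeq test, with 0 higher and 3 lower at an unadjusted p under 0.05 and 2 higher and 3 lower by limma-voom. Of 13 genes that supply NADPH, 0 were called in either comparison by the authors' DESeq test. At an unadjusted p under 0.05 there were 1 higher and 2 lower with siSOX9 and 0 higher and 3 lower with siY14, and limma-voom gave the same counts. The median log2 fold change was 0.08 with siSOX9 and -0.21 with siY14.

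Selenoproteins were compared by where their codon lies, since a junction more than 55 bases downstream is the usual mark of a premature stop for nonsense-mediated decay. With siY14, 10 selenoproteins with reads, GPX1 and GPX2 among them, have such a junction in the GENCODE transcript used. GPX1 and SEPW1 were called higher and GPX2 lower by the authors' adjusted p, 6 of the 10 had a positive log2 fold change, and the median was 0.14. At an unadjusted DESeq p under 0.05 there were 4 higher and 2 lower. Limma-voom called 2 higher and 1 lower of 8 recovered, the same counts as for the selenoproteins without such a junction. Among all genes the authors' test called 3.81% higher and 5.35% lower with siY14, and limma-voom 15.2% and 15.2%. SEPW1, the mRNA of selenoprotein W, had arm means of 3792 with siY14 and 1685 with siCtrl, a log2 fold change of 1.17 (DESeq adjusted p = 0.0353, authors' deposited table). TXNRD2, the mitochondrial thioredoxin reductase, had arm means of 1362 with siY14 and 725 with siCtrl, a log2 fold change of 0.91 (DESeq adjusted p = 0.0721, authors' deposited table).

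The other 9 selenoproteins, TXNRD1 among them, have no such junction. Of these 5 had a positive log2 fold change with siY14, the median was 0.10, and 0 were called by the authors' DESeq test, with 0 higher and 2 lower at an unadjusted p under 0.05 and 2 higher and 1 lower by limma-voom. With siSOX9, 0 of the 11 selenoproteins with such a junction and 0 of the 9 without were called by the authors' DESeq test, also at an unadjusted p under 0.05, while limma-voom called 2 and 1 higher. Their medians with siSOX9 were 0.09 with such a junction and -0.03 without. SELT, the mRNA of selenoprotein T, whose codon has such a junction, was at -0.60 with siY14 (DESeq adjusted p = 0.0688 in the authors' deposited table). Of 9 factors for selenoprotein synthesis, 8 had reads and 0 were called in either comparison by the authors' DESeq test, with 0 at an unadjusted p under 0.05 with siSOX9 and 1 lower with siY14, and with 1 higher with siSOX9 and 1 lower with siY14 by limma-voom. Their median log2 fold change was -0.09 with siSOX9 and -0.01 with siY14. The part of nonsense-mediated decay in the siY14 values of the selenoproteins was not tested.

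Among 11069 genes with a mean of at least 100 in both tables, those nearest to OSGIN1 by their pair of log2 fold changes were DOCK4, an exchange factor for RAC GTPases, TEX14 and NR4A3, an orphan nuclear receptor. Their distances were 0.0756, 0.0952 and 0.146 on the log2 scale, and DOCK4 had 1.43 with siSOX9 and 0.60 with siY14 in the authors' deposited tables. Those nearest to GPX1 were METTL12 at 0.0570, EPB41L4A-AS1 at 0.0781 and PPP1R16A at 0.126. All 3 had a siY14 log2 fold change between 1.27 and 1.39 in the authors' deposited table and none was called there, with DESeq adjusted p of 0.117 to 0.189. Whether reads were counted by strand is not given in the sources used here, so EPB41L4A-AS1 cannot be told from transcripts on its other strand.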

How the data were processed

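The samples were DLD-1 RNA-seq libraries. The submitters' processing notes name the build hg19 and the tools TopHat2, Bowtie, HISAT2, SAMtools, HTSeq and DESeq, with no role or version given in the sources used here. Per the file headers, the authors deposited for each gene the mean normalised count over all libraries and per arm (a signal: gene counts divided by size factors and averaged), the fold change (a ratio of arm means), its log2 value, and the p-value with its adjusted p-value. The knockdown arm and the siCtrl arm of a table were told apart by how many libraries each contributes to the overall mean, set beside the sample numbers of the labels. There are 0 further per-sample columns. The depth of a library is an estimate from its recovered reads plus the arm means of other genes.

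Whole reads per library were recovered as the only set that meets both arm means to their printed digits and, for 15528 genes with siSOX9 and 14772 with siY14, through the authors' DESeq test also the deposited p-value within 1e-07. Of genes with reads, 16829 of 18747 were recovered in the siSOX9 table, and the siY14 table gave 16100 of 17706. The members and SOX9 were searched without the limit on arm mean set for other genes of wide spread. Shares and medians over recovered genes thus underrepresent widely spread genes with high counts. Tested on simulated data, the recovery returned 337 of 400 and 345 of 400 sets right and 0 wrong. Those libraries were drawn independently, and their p-values came from the same calculation that the search matches. The share of wrong sets in the real tables is therefore not known from this. limma-voom (limma 3.58.1, R 4.3.3) was fitted to recovered genes whose mean was at least 10, with the size factors as library sizes and Benjamini-Hochberg adjustment at 0.05, across all of them. Tested on simulated data, it recovered 104 of 114 genes with a 2-fold and 86 of 86 with a 4-fold change in the siSOX9 table, with 13 wrong calls among 203, and 79 of 91 and 109 of 109 in the siY14 table, with 13 wrong among 201. The libraries simulated for limma-voom were independent, with the same dispersion for every gene. They had no near-identical pairs and no library set apart other than by depth. The share of wrong calls in the real tables, which have both, is therefore not known from this.

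The members and lists were chosen with earlier results of these data known. All 10 members are named. From each list the text names members with an authors' adjusted p under 0.05, at most 4 per list and table, the largest log2 fold change first, and 3 genes nearest to OSGIN1 and GPX1 among genes with a mean of at least 100. TXNRD2 and SELT were named after their values were seen. In the siY14 table symbols such as SEP15 are written as dates, and these were not used. The summed level of the immune markers is not reported here.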

Additional observations from a re-analysis of the deposited data

Results flagged for a closer look

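For 5 of the 10 genes the siSOX9 and the siY14 effect differed by the joint limma-voom model, as values with no explanation. The knockdowns were of different experiments, so knockdown and experiment cannot be told apart here. The siSOX9 effect minus the siY14 effect was 1.26 (log2) for GCLM, 1.20 for NQO1, 1.04 for SRXN1, 0.79 for TXNRD1 and -1.41 for GPX1. Of 10343 genes, the model called 12.5% with the higher effect with siSOX9 and 13.3% with siY14. With the siY14 pairs and the siCtrl libraries of that table summed, SRXN1 and TXNRD1 were no longer called. No library of a 4-library arm stood far enough from the other 3 for any of the 10 genes to be listed here.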

How the results depend on the processing

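Calls of the 10 genes depended on the test. With siSOX9 the authors' test called 4. That count held with p-values adjusted over genes averaging 10 or more and after recentring on the median gene, and it was 5 by limma-voom, or 4 to 5 as single libraries were left out. It was 8 with the deepest libraries as a term and 6 without the deepest library of both arms, both chosen after seeing the data. OSGIN1, NQO1, GCLM and SRXN1 were called in each of these fits. With siY14 the authors' test called 2, the same p-values adjusted over genes averaging 10 or more called 3, limma-voom 5, and leaving out single libraries gave 0 to 7: 7 without siY14 library a, 4 without b, 6 without c, 3 without d and 0 without either siCtrl library, where the lone siCtrl library is assumed to vary like the others. It was 0 with siY14 libraries a and c, and b and d, summed, also chosen after seeing the data. The difference between the effects was called for 5 genes, and for 2 to 6 as single libraries were left out: 2 without siCtrl library a of the siY14 table and 3 without library b. It was 3 with the siY14 pairs and the siCtrl libraries of that table summed, chosen after seeing the data. Over all genes, the authors' test called 224 higher and 426 lower with siSOX9 and 675 higher and 947 lower with siY14, and limma-voom 2363 and 3665 in all, of fewer genes tested. Limma-voom called 1557 to 3091 with siSOX9 and 3 to 4383 with siY14 as single libraries were left out, with 3 and 4 without siCtrl library a and b, and 4056 with siSOX9 without both deepest libraries and 6159 with these as a term. The fold changes of HMOX1 changed sign: with siSOX9 -0.0060 after recentring, -0.013 by limma-voom and -0.022 with the deepest libraries as a term, and with siY14 -0.17 by limma-voom and -0.17 with siY14 libraries summed. As single libraries were left out, the lowest and highest log2 fold changes were -0.048 and 0.063 for HMOX1, -0.079 and 0.034 for GCLC, -0.25 and 0.049 for GPX1 and -0.63 and 0.051 for GPX2 with siSOX9, and -0.56 and 0.22 for HMOX1 with siY14. The difference between the effects ranged from -0.032 to 0.040 for NFE2L2, which was -0.0018 with the siY14 pairs summed and -0.00030 with the siCtrl libraries summed too, and from -0.23 to 0.54 for HMOX1. The cause was not tested. Pseudocounts of 1 and 10 changed no direction. No paired analysis was possible because the recovered libraries carry no replicate numbers (the term for the deepest libraries goes by depth, not by a number in the labels). GPX2 rests on the fewest reads of the 10 genes.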
